A study of Oryctolagus cuniculus with 36 samples.

Results

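The genes described here are 200 rabbit transcripts that were abundant in the terminal ileum and close to silent in the liver, of 9419 genes in the deposited tables. They were chosen by measured values: every library was scaled to a total of 1000000, and T was the log2 ratio of the mean liver level plus 1 over the mean ileum level plus 1. Genes with a T of −3 or less numbered 965, and 325 of these also averaged under 10 normalized counts over the 24 liver libraries. The 200 of highest scaled ileum mean were kept. The rule also set aside 5 gene IDs, and none of these met its thresholds, so nothing was removed by that step. The gap between ileum and liver is therefore part of the choice and is given only as a description. The choice did not use treatment.

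The study pre-treated wild-type rabbits with obeticholic acid (OCA) or with vehicle, which the labels also call control, and then blocked part of the portal blood supply of the liver by portal vein embolization. Each of 36 libraries of total RNA came from terminal ileum, from the embolized cranial liver lobe or from the non-embolized caudal liver lobe, with 6 OCA and 6 control libraries of each tissue. All groups, controls included, are labelled wild type and come from animals that underwent embolization. The labels give no dose, timing, sex or age. They do not tie a library to an animal either. The p-values thus weigh a difference between groups against the spread among libraries of a group, and that spread may be technical.

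OCA is a semisynthetic bile acid and an agonist of FXR, the nuclear receptor through which enterocytes and hepatocytes sense bile acids. The terminal ileum is where most bile acids are taken back up from the gut lumen, and it holds enterocytes, secretory cells, immune cells, nerve and muscle in one wall. Genes used in the gut but not in hepatocytes include those for brush border digestion and transport, mucus and gut hormones. The files give Ensembl gene IDs only and pair none with a symbol, and the RefSeq gene table at hand pairs none of them either. Members therefore appear under their IDs without a role, no marker list could be applied, and the tissue label could not be checked against marker genes. In bulk tissue, fewer cells of a type and less RNA per cell cannot be told apart.

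Depth, in units of 1000000 reads recovered from the deposited values, was 14.4 ± 2.76 per library in OCA ileum and 17.5 ± 4.04 in control ileum (SD, n = 6 each). The shallowest ileum library was OCA 1 (PVE004), at 11.2, and the deepest was control 6 (PVE009), at 24.5. These libraries stood apart from their groups across the members, and results that rest on them are given with and without them. Liver libraries lay between 12.01 and 27.3 in the same unit.

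In ileum the scaled mean of the members ran from 19.4 to 5575 per 1000000, with a median of 57.6. The last member kept stood at 19.4 per 1000000 and the first gene left out at 19.2. T ran from −11.91 to −3.71 with a median of −5.58, so no member lay close to the bound on T. The bound on liver level did more of the choosing: the highest member averaged 9.86 normalized counts in liver and the next gene outside it 10.2, and 615 genes of at least member level in ileum met T but not this bound.

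Together the members held 1.89% of the reads in OCA 1, against 3.76 to 4.67% in the other 5 OCA libraries. They held 1.88% in control 6, against 4.07 to 5.05% in the other 5 control libraries. The means were 3.85 ± 1.01% in OCA and 3.95 ± 1.08% in control ileum (SD, n = 6 each), and the groups overlapped. Without OCA 1 and control 6 they were 4.24 ± 0.352% and 4.36 ± 0.401% (SD, n = 5 each).

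**Figure D1:**
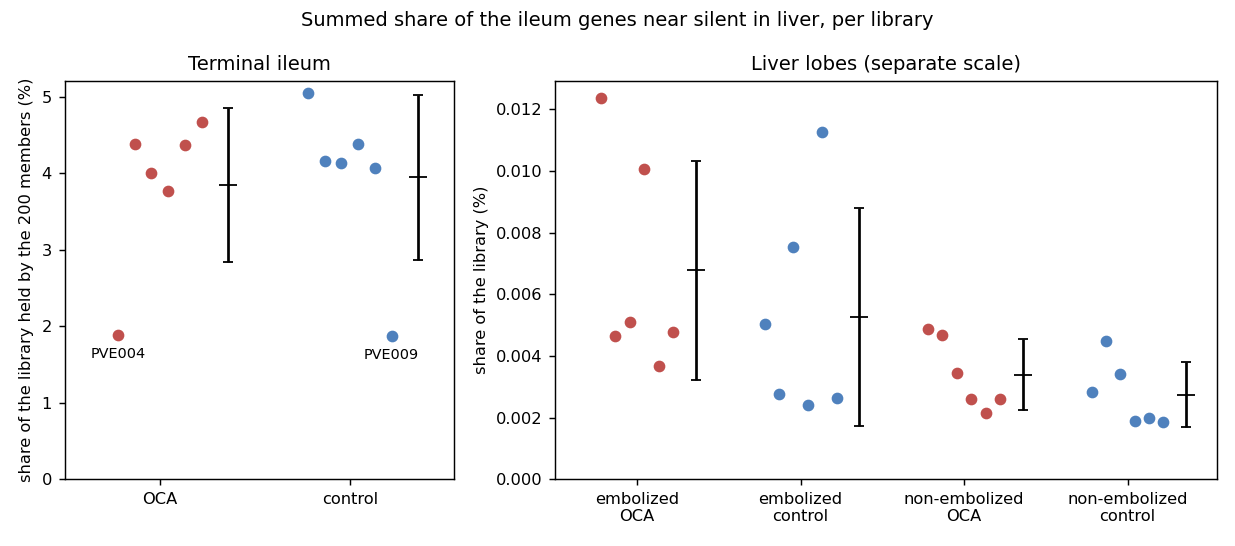
Percent of each library held by the 200 members, in ileum on the left and in the 4 liver groups on the right, on separate vertical scales; points are libraries and the bars beside them are the mean and SD of 6 libraries. In ileum PVE004 and PVE009 sit at 1.89% and 1.88%, below the other 10 libraries at 3.76 to 5.05%, and no liver library exceeds 0.0124%.

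The most abundant member, ENSOCUG00000001485, was at 17417 normalized counts in OCA 1 and between 78341 and 154370 in the other OCA libraries, against 21.0 in control 6 and between 75373 and 112761 in the other control libraries. The next, ENSOCUG00000003878, was at 16008 in OCA 1 and between 28725 and 81355 in the other OCA libraries, against 14.6 in control 6 and between 35790 and 80401 in the other control libraries. Both genes were thus among the major transcripts of 10 ileum libraries, were lowest among OCA libraries in OCA 1 and were nearly missing from control 6. With all 12 libraries their log2 fold changes for OCA over control were 1.86 ± 1.83 and 1.7 ± 1.77 (SE; limma adjusted p = 0.752 and 0.762). Without OCA 1 and control 6 they were 0.31 ± 0.25 and 0.04 ± 0.31 (limma adjusted p = 0.624 and 0.964).

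Each ileum library was next set against the median of the other 5 libraries of its group, on log2(normalized count + 1). In OCA 1 the median member lay 1.41 log2 units below its group, with 130 of 200 members over 2-fold below and 16 over 2-fold above. Over all 9010 genes tested in that library, 18.3% lay over 2-fold below and 19.9% above, with a median difference of 0.01. In control 6 the median member lay 1.15 log2 units below its group, with 105 members over 2-fold below and 40 above, where 16.2% of all tested genes lay below and 15% above. In the other 10 libraries the median difference ran from −0.17 to 0.36, and between 5 and 18 members lay over 2-fold below and between 7 and 24 above. Most members were thus low in OCA 1 and in control 6, while the median over all tested genes was close to 0 in both. That median depends on the scaling, and with equal totals it was 0.47 in OCA 1 and −0.41 in control 6. The median member then lay at −0.96 and −1.56. Members were chosen for a high mean over the ileum libraries, so a library unlike the rest can lie below on them through the choice. OCA 1 and control 6 are single libraries, so the differences have no test, and both were singled out with earlier results known.

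The departures differed in depth. In control 6, 43 members lay over 32-fold below the other controls, where 1.75% of all tested genes did. In OCA 1 no member did, where 0.0444% of all tested genes did, and in the other 10 libraries at most 1 member did. Those 43 members were at no more than 213 normalized counts in control 6. At most 3 reads were recovered for 20 members in control 6, against 3 members in OCA 1 and 3 to 5 in the other 10 libraries.

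ENSOCUG00000017618, farthest below its group in control 6 together with ENSOCUG00000001485, was at 2.43 normalized counts there and between 10119 and 15686 in the other controls, a log2 difference of −12.01. In OCA 1 it was at 1797, against 7052 to 15401 in the other OCA libraries. The members farthest below their group in OCA 1 were ENSOCUG00000008639 and ENSOCUG00000012685. ENSOCUG00000008639 was at 89.1 in OCA 1 and between 1579 and 4273 in the other OCA libraries, a log2 difference of −4.87, and ENSOCUG00000012685 was at 49.2 and between 752 and 1037, a log2 difference of −4.20. Both were also low in control 6, at 454 against 1782 to 4603 in the other controls for ENSOCUG00000008639 and at 18.6 against 713 to 1151 for ENSOCUG00000012685.

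A few members went far the other way. ENSOCUG00000007374 was at 47157 normalized counts in control 6 and at no more than 2.99 in the other controls, and ENSOCUG00000012816 was at 11712 in control 6 and at no more than 1.49 in the other controls. In OCA libraries ENSOCUG00000012816 stayed at 0.809 or less, while ENSOCUG00000007374 was at 145 in OCA 1 and at no more than 4.14 in the other 5. ENSOCUG00000024738 was at 14801 in OCA 1 and between 8.28 and 28.3 in the other OCA libraries, against 0 in control 6 and 12.2 to 26.9 in the other controls. ENSOCUG00000023396 was high in both libraries: it was at 2186 in OCA 1 and between 3.11 and 13.5 in the other OCA libraries, against 10918 in control 6 and 3.75 to 55.1 in the other controls. Over 32-fold above the group were 5 members in OCA 1 and 6 in control 6, or 2.5% and 3% of the 200, where 0.444% and 0.277% of all tested genes were. Of these, 2 in OCA 1 and 5 in control 6 are not among the tested genes, and a high level in a single library can itself make a gene a member, so the shares are a description and are not to be compared.

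**Figure D2:**
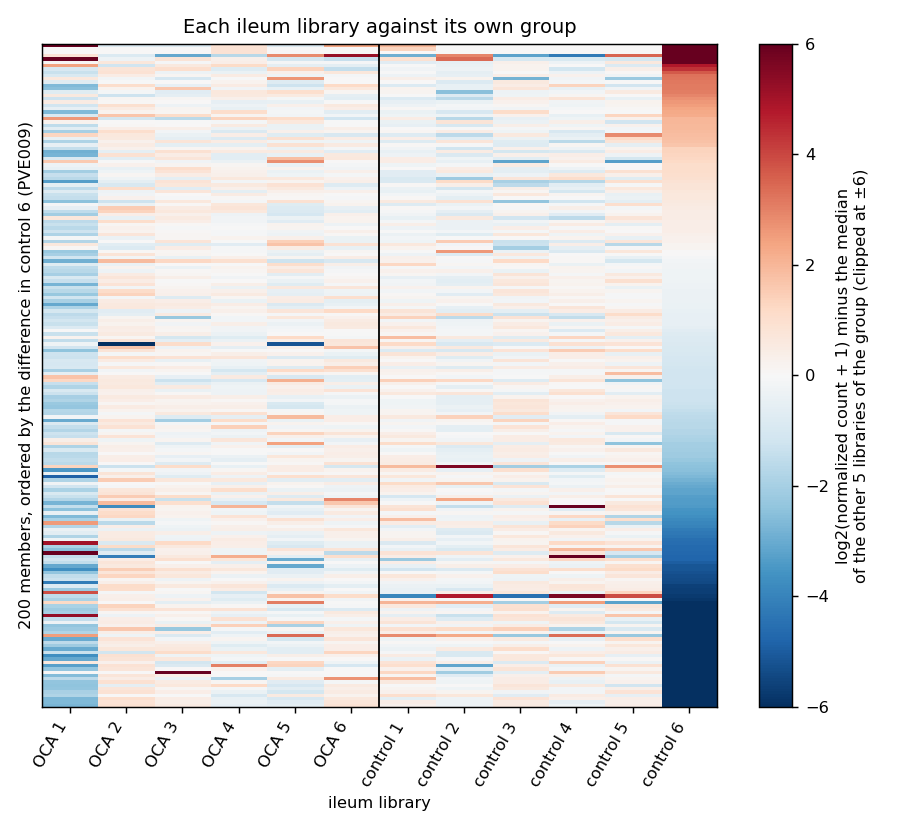
Difference of each of the 200 members (rows, ordered by control 6) from the median of the other 5 libraries of its group, in log2(normalized count + 1), for the 6 OCA libraries left of the line and the 6 control libraries right of it; colours are clipped at 6 log2 units. OCA 1 is mostly below its group (130 members over 2-fold below), and control 6 runs from far above to far below (40 over 2-fold above and 105 below). The other 10 columns are mostly pale, with at most 24 members over 2-fold above and 18 below in any of them.

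These extremes also bear on which genes became members. Over 50% of the summed scaled ileum level came from control 6 alone for 10 members, from OCA 1 alone for 4 and from control 2 alone for 1. With control 6 left out of the ileum mean, 6 members no longer met T and 191 of the 200 were kept. With OCA 1 left out, 2 members no longer met T and 195 were kept. With both left out, 9 failed T and 185 were kept. Leaving out any one of the other 10 libraries kept between 195 and 198 members, and none failed T.

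Members over 2-fold below in both libraries numbered 75, which is 57.7% of the OCA 1 list and 71.4% of the control 6 list. Of all 200 members, 52.5% lay below in control 6 and 65% in OCA 1, so these shares are close to what the lengths of the lists give. Members over 2-fold above in both numbered 6, or 37.5% of the OCA 1 list and 15% of the control 6 list, where 20% of all members lay above in control 6 and 8% in OCA 1. Below in OCA 1 but above in control 6 were 14, and the reverse held for 10. Across the 200 members, which share these libraries and are not replicates, the differences had a Pearson r of 0.31 and a Spearman rho of 0.32. The comparisons share no library, but the members were chosen on a mean that includes both libraries, which links them. The same counts and correlations over all tested genes were not made, so they are not read as particular to the members.

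**Figure D3:**
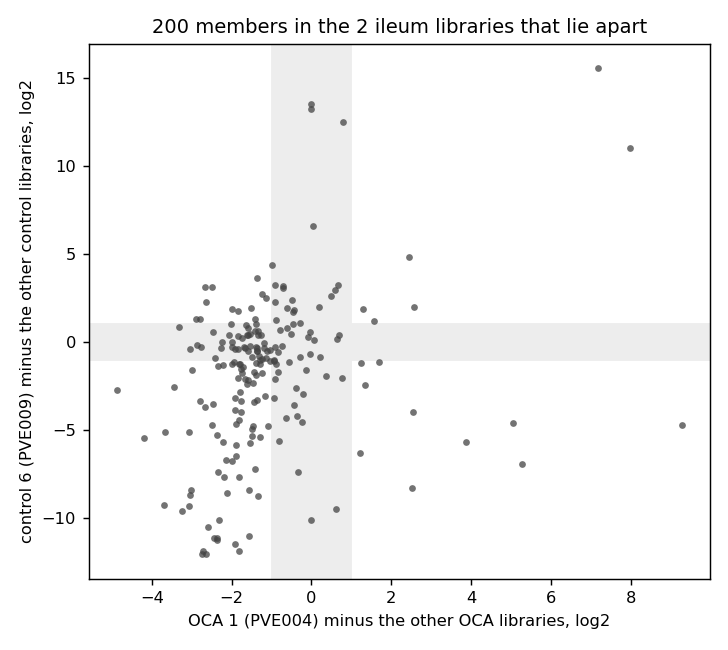
Each point is 1 of the 200 members, with its log2 difference in OCA 1 (PVE004) from the other OCA libraries on the horizontal axis and in control 6 (PVE009) from the other control libraries on the vertical axis; grey bands mark differences under 2-fold. Most points lie left of 0, 75 lie over 2-fold below in both libraries, and ENSOCUG00000007374 and ENSOCUG00000023396 lie far above in both.

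The members were also ranked by their mean in the other 10 libraries and divided into 4 sets of 50. In the top set, 44 lay over 2-fold below in OCA 1 and 0 above, with a median of −1.87, and in control 6 there were 37 below and 1 above, with a median of −3.58. In the lowest set, 21 lay below and 10 above in OCA 1, with a median of −0.77, and 18 below and 19 above in control 6, with a median of 0.26. Membership needed a high mean over all 12 libraries, so some genes low in the other 10 entered through a high value in OCA 1 or control 6, and the counts above in the lowest set are partly fixed by the choice. The ranking also used the libraries that gave the group medians, so a lower difference in the top set can be partly built in. The 105 members below in control 6 held 0.213% of its reads, against 3.31 to 4.14% in the other controls. The 40 members above held 1.20%, against 0.164 to 0.199%. The 130 members below in OCA 1 held 1.19%, against 3.44 to 4.31% in the other OCA libraries, and the 16 above held 0.343%, against 0.0182 to 0.083%. These shares follow from how the lists were drawn and are a description.

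Control 6 also differed outside the members. ENSOCUG00000013891, which is no member, took 27.7% of its reads, against 0.0171% or less in each of the remaining ileum libraries. The part of this gene in the lower share of the members was not tested. Relative to the median of all tested genes, the members lay lower by a log2 difference of −1.15 in control 6 and −1.42 in OCA 1 under the deposited scaling, and by −1.14 and −1.43 with equal totals. A change of scaling shifts members and all tested genes by nearly the same amount. These values had to be close for that reason, and they are no check on the scaling or on the part of this gene. In the 24 liver libraries the members held 0.00188 to 0.0124% of the reads, and the 6 members over 32-fold above the group in control 6 reached at most 9.18 normalized counts in any liver library. Membership needed a mean under 10 normalized counts in liver, so low liver values follow from the choice. Genes well expressed in liver could not be members, and their level in control 6 is not described here.

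OCA was then compared with control in ileum, with limma-trend on log2(normalized count + 1) over all genes with at least 10 normalized counts in at least 6 of the 12 libraries. No member passed at a Benjamini-Hochberg adjusted p under 0.05, in either direction, and no gene of the 9010 tested did (0% called in each direction). Of the members 195 could be tested. The other 5 did not reach the filter, and each had its highest level in control 6. Named here after their values were seen, they were ENSOCUG00000007374, ENSOCUG00000023396, ENSOCUG00000022526, ENSOCUG00000012816 and ENSOCUG00000029547. The lowest adjusted p of a member was 0.391. At an unadjusted p under 0.05 there were 9 members higher and 15 lower, where 4.1% and 3.54% of all tested genes were. The edgeR test on recovered reads called 0 members as well, with 8 higher and 24 lower at an unadjusted p under 0.05, where 5.96% and 4.84% of all genes were. DESeq2 gave a p-value to fewer, 182 members and 8864 of all genes. It called 1 member higher and 3 lower, where 0.53% and 0.361% of those genes were called. At an unadjusted p under 0.05 it had 4 members higher and 22 lower, where 5.63% and 6.02% of those genes were.

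The log2 fold changes of the 200 members for OCA over control had a median of −0.01, with quartiles at −0.52 and 0.56, against a median of 0.00 and quartiles at −0.27 and 0.24 over all tested genes. Above 0 were 98 members and below 0 were 102. Changes of more than 2-fold in either direction were seen for 52 members, where 6.45% of all tested genes had one. Without OCA 1 and control 6 there were 22 such members, where 4.28% of all tested genes had one, and the quartiles were −0.35 and 0.24. The sign of the fold change differed between these fits for 60 members, and for 31 the value moved by more than 1 log2 unit. All values for the members are over the 200, of which 5 did not reach the filter and are not among the tested genes. A high value in 1 library could itself make a gene a member, so the counts and the shares are not over like sets.

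The balance of signs changed when these libraries were left out. Without OCA 1 alone the median was 0.14, with 117 members above 0 and 83 below. Without control 6 alone it was −0.23, with 54 above and 146 below. Replicates 1 to 3 and 4 to 6 of both groups follow separate runs of library numbers, and each run holds 1 of the 2 libraries. Within replicates 1 to 3, which include OCA 1, the median was −0.39, and within replicates 4 to 6, which include control 6, it was 0.32. No member passed in either run.

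**Figure D4:**
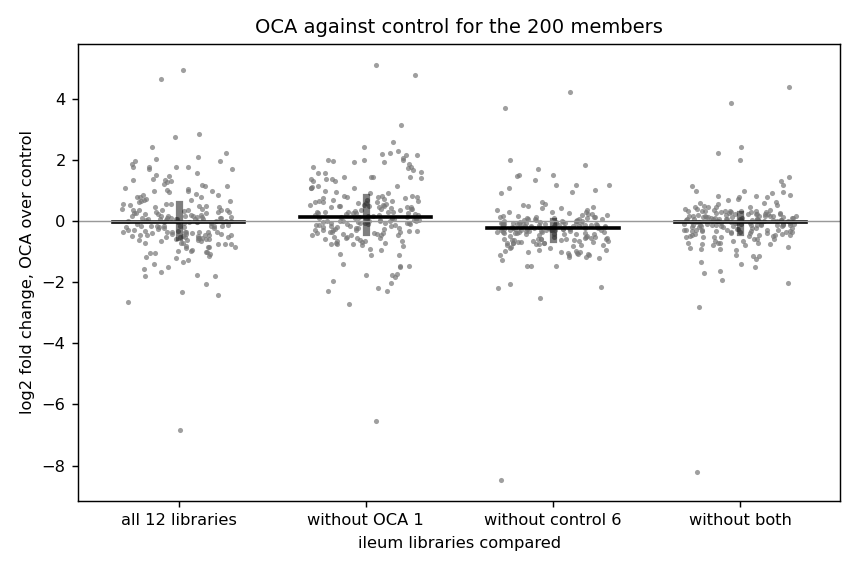
Log2 fold change of OCA over control for each of the 200 members with all 12 ileum libraries, without OCA 1, without control 6 and without both; the horizontal line is the median and the thick bar runs between the quartiles. The medians are −0.01, 0.14, −0.23 and −0.02, and the points draw closer to 0 when both libraries are left out.

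The members of lowest p with a higher mean in OCA were ENSOCUG00000001597 and ENSOCUG00000026849. ENSOCUG00000001597 had a low of 628, a median of 1033 and a high of 1603 normalized counts in OCA libraries, against 272, 451 and 894 in control libraries, and the groups overlapped. Its log2 fold change was 1.09 ± 0.29 (SE; limma adjusted p = 0.417) and 1.17 ± 0.32 without OCA 1 and control 6 (limma adjusted p = 0.211). OCA 1 and control 6 lay within the range of their groups for this gene, at 1016 and 647. ENSOCUG00000026849 had 36.7, 487 and 1855 in OCA libraries, against 0, 7.47 and 969 in control libraries. Of the controls only control 4, at 969, was high and the other 5 lay at 10.3 or less, so the groups overlapped through 1 library. Its log2 fold change was 4.93 ± 1.41 (limma adjusted p = 0.419).

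The members of lowest p with a lower mean in OCA were ENSOCUG00000004632 and ENSOCUG00000017958. ENSOCUG00000004632 had 55.5, 296 and 847 normalized counts in OCA libraries, against 963, 1236 and 9828 in control libraries, so every OCA library lay below every control library. The lowest value of all was in OCA 1 and the highest in control 6. Its log2 fold change was −2.66 ± 0.66 (limma adjusted p = 0.391), and without these libraries it was −1.7 ± 0.32 (limma adjusted p = 0.0918). ENSOCUG00000017958 had 193, 310 and 1093 in OCA libraries, against 475, 1179 and 2482 in control libraries, and the groups overlapped through OCA 5 alone, at 1093. Its log2 fold change was −1.79 ± 0.47 (limma adjusted p = 0.413) and −2.01 ± 0.45 without OCA 1 and control 6 (limma adjusted p = 0.112).

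Members whose groups did not overlap numbered 0 higher and 3 lower in OCA, where 0.377% and 0.322% of all tested genes were. The 3 were ENSOCUG00000004632, ENSOCUG00000000658 and ENSOCUG00000010311, of which the last 2 were named after their values were seen. ENSOCUG00000000658 ran from 1205 to 4889 in OCA and from 5590 to 7878 in control libraries (log2 fold change −1.03 ± 0.30, limma adjusted p = 0.430). Its lowest values in each group were in OCA 1 and control 6, and the others ran from 3011 to 4889 in OCA and 6127 to 7878 in control libraries. ENSOCUG00000010311 ran from 346 to 613 in OCA and from 717 to 4229 in control libraries (−1.19 ± 0.39, limma adjusted p = 0.531). Its lowest value was in OCA 1 and its highest in control 6, and the others ran from 360 to 613 in OCA and 717 to 845 in control libraries. With OCA 1 and control 6 given low weights, the log2 fold changes of these genes were −0.85 and −0.80. Without OCA 1 and control 6, 5 members were higher and 7 lower without overlap, where 1.21% and 1.4% of all tested genes were.

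One member was called when OCA 1 and control 6 were left out, where 0.0555% of all tested genes were called higher and 0.0222% lower. At an unadjusted p under 0.05 that fit had 19 members higher and 26 lower, where 5.9% and 5.89% of all tested genes were. ENSOCUG00000015168, named after its values were seen, was at 1486 normalized counts in OCA 1 and between 5097 and 14067 in the other OCA libraries, against 38.0 in control 6 and between 1006 and 2319 in the other controls. Among those 10 libraries the groups did not overlap, and both libraries left out were the lowest of their group. Its log2 fold change was 2.24 ± 0.29 in that fit (SE; limma adjusted p = 0.0273) and 2.74 ± 0.91 with all 12 libraries (limma adjusted p = 0.546). DESeq2 on all 12 libraries called it as well (adjusted p = 0.0485), together with ENSOCUG00000004632 (0.0058), ENSOCUG00000017958 (0.0485) and ENSOCUG00000004890 (0.0451, also named after its values were seen). A limma fit with sample quality weights, which gave OCA 1 and control 6 weights of 0.164 and 0.181 against 0.600 to 2.69 for the others, called 6 members higher and 13 lower, where 1.6% and 2.28% of all tested genes were called. These 4 genes were among them.

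**Figure D5:**
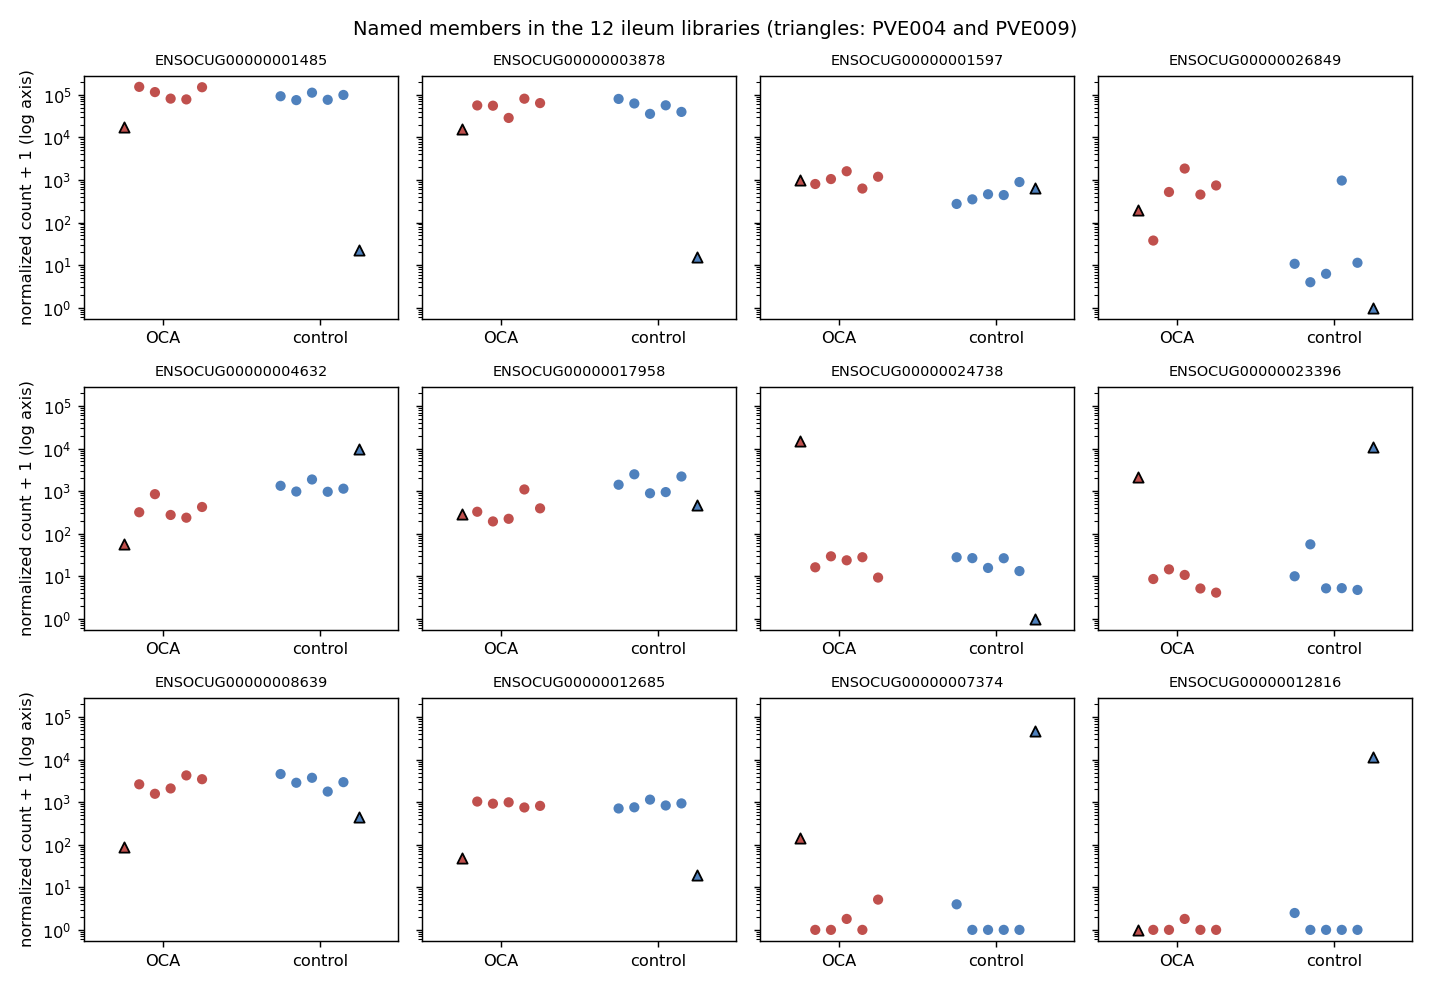
Normalized count plus 1, on a log axis, of 12 members in the 6 OCA libraries (left, red) and the 6 control libraries (right, blue) of ileum; triangles are OCA 1 (PVE004) and control 6 (PVE009). The most abundant members, ENSOCUG00000001485 and ENSOCUG00000003878, lie at 21.0 and 14.6 normalized counts in control 6, while ENSOCUG00000007374 and ENSOCUG00000012816 reach 47157 and 11712 there.

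Among the other 10 libraries the members varied somewhat more than the typical tested gene. The SD within treatment, on the log2 scale, had a median of 0.46 over the members, with quartiles at 0.34 and 0.68, against 0.36 over all tested genes. It exceeded 1 for 22 members, or 11%, against 5.42% of all tested genes. With all 12 libraries the medians were 1.00 and 0.52, and 101 members exceeded 1.

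Of the 5 members with the largest SD among these 10 libraries, ENSOCUG00000026849 is described above and the other 4 are named here after their values were seen. ENSOCUG00000006578 was at 316 in OCA 3 and at 0 in the other 5 OCA libraries, against 0 in control 6 and 256 to 2052 in the other controls. Its log2 fold change was −6.83 ± 1.95 (SE; limma adjusted p = 0.419), and −8.20 ± 1.46 without OCA 1 and control 6 (limma adjusted p = 0.0807). ENSOCUG00000022526 lay between 0 and 181 in these 10 libraries and at 13989 in control 6. ENSOCUG00000000293 was high and low in nearly the same libraries as ENSOCUG00000026849. It was between 53.1 and 2916 in OCA libraries, against 1531 in control 4 and at most 29.9 in the other controls. ENSOCUG00000006282 was at 17.7 in OCA 2 and 48.7 in OCA 5 and between 1487 and 3141 in the other OCA libraries, against 1792 to 4511 in control libraries.

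In liver the members were close to 0 by choice, and their values there are a description without a test. The median of their liver means was 2.80 normalized counts, 62 averaged under 1, and 1, ENSOCUG00000021468, named after its values were seen, was at 0 in all. The highest value of any member in any liver library was 96.4, and 115 members reached 10 in at least 1 library. As only 38 had 10 or more in at least 6 libraries, most would not reach a filter like that used in ileum.

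The small liver signal was uneven between libraries. The members held 0.00677 ± 0.00355% of the reads in the embolized lobe after OCA and 0.00527 ± 0.00354% after vehicle. In the non-embolized lobe they held 0.00339 ± 0.00115% after OCA and 0.00275 ± 0.00105% after vehicle (SD, n = 6 each). Single libraries ran from 0.00367 to 0.0124% in the embolized OCA group, against 0.00215 to 0.00488% in the non-embolized OCA group. They ran from 0.0024 to 0.0113% in the embolized control group, against 0.00188 to 0.00447% in the non-embolized control group. The lobes overlapped under both treatments, and the treatments overlapped in both lobes. Of the 115 members that reached 10, 93 had their highest value in an embolized library, 36 of them in embolized OCA 1, which held the largest share. All 7 members that reached 50 in liver had their highest value in that library. By library, 1 recovered read stood for 0.691 to 1.79 normalized counts in the embolized lobe and for 0.508 to 1.28 in the non-embolized lobe. The part of this in the count of 93 was not tested. The same count over all genes was not made, so the 93 are a description and are not read as particular to the members. The ileum and liver tables were normalized separately, so their normalized counts are not on one scale.

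The members of highest liver mean were ENSOCUG00000026842 and ENSOCUG00000023948. ENSOCUG00000026842 averaged 9.86 normalized counts over liver libraries, with its highest values of 40.1 in embolized OCA 4 and 36.2 in embolized control 5. In ileum it was steady, with 1012, 1177 and 1516 as the lowest, median and highest value in OCA libraries, against 766, 1306 and 1618 in control libraries. ENSOCUG00000023948 averaged 9.79 in liver, with its highest values of 31.0 in embolized control 2 and 26.5 in embolized control 1. In ileum it was at 1614 in OCA 1 and between 355 and 733 in the other OCA libraries, against 243 in control 6 and 490 to 675 in the other controls. OCA 1 was thus its highest ileum library and control 6 its lowest.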

How the data were processed

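Per the labels' protocols, strand-specific libraries of total RNA were read as paired ends. The submitters' processing notes name STAR, RSEM and DESeq2, without versions or roles; a genome build and an annotation are named neither there nor in the labels. What the authors deposited is a signal on a normalized scale, which behaves as whole gene counts divided by 1 factor per library, with ileum and liver in separate tables. In every library 100% of values were whole multiples of 1 step (tolerance 0.01), which gave the recovered reads; edgeR, run on them, called 0 genes and DESeq2 79 (47 higher, 32 lower). The unit was not raw counts, so limma-trend (limma 3.58.1, R 4.3.3) on log2(value + 1) was the main test, for OCA against control in the 12 ileum libraries with no covariate; such fold changes understate those of low genes. Alternatives used edgeR 4.0.16, DESeq2 1.42.0, other scalings, pseudocounts, filters and libraries.

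The members were chosen with earlier results of these data known, among them the IDs set aside. Named members are the 2 most abundant in ileum, the 2 of lowest p in each direction (mean of at least 50), the 2 farthest above and below in PVE004 and in PVE009, and the 2 highest in liver; others are marked as named after their values were seen. The depth per library limits precision: a value of 0 in ileum means 0 recovered reads and does not show that the transcript was absent. No sequences are shown, as no table pairs the IDs with one.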

Additional observations from a re-analysis of the deposited data

Results flagged for a closer look

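A library counted as lying far from its group of 6 when its gap to the nearest library, divided by the range of the group, exceeded Dixon's critical value; chance gives about 1 such group in 20. Over all 200 members this was met in 50 OCA groups, 46 of them through OCA 1, and in 88 control groups, 85 of them through control 6. That is 25% and 44% of the members, against 15.6% and 16.6% of all tested genes. Through OCA 1 alone it was met by 23% of the members and 13.2% of all tested genes, and through control 6 alone by 42.5% and 13.8%. A high value in 1 library could itself make a gene a member. For the summed share of the members the ratio was 0.675 for OCA 1 and 0.693 for control 6. The named members below were partly chosen for such gaps, so their ratios are a description.

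OCA 1 lay apart from the other OCA libraries for ENSOCUG00000001485 (0.689), ENSOCUG00000024738 (0.844), ENSOCUG00000023396 (0.799), ENSOCUG00000008639 (0.742), ENSOCUG00000012685 (0.894), ENSOCUG00000007374 (0.671) and ENSOCUG00000017618 (0.636). OCA 4 lay apart for ENSOCUG00000012816 (a ratio of 1), where it held 0.809 normalized counts and the other OCA libraries 0. That value is 1 recovered read, and any single read against 0 elsewhere gives this ratio.

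Control 6 lay apart from the other controls for ENSOCUG00000001485 (0.953), ENSOCUG00000003878 (0.905), ENSOCUG00000004632 (0.713), ENSOCUG00000024738 (0.775), ENSOCUG00000023396 (0.681), ENSOCUG00000012685 (0.883), ENSOCUG00000007374 (0.872), ENSOCUG00000012816 (0.902), ENSOCUG00000017618 (0.948) and ENSOCUG00000023948 (0.686). Control 4 lay apart for ENSOCUG00000026849 (0.647).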

How the results depend on the processing

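No member was called in 25 of the 28 other ileum fits. Sample quality weights called 6 higher and 13 lower, DESeq2 called 1 higher and 3 lower, and leaving out OCA 1 and control 6 together called 1 higher. With the replicate number as a block 0 members were called, with 10 higher and 13 lower at an unadjusted p under 0.05; same-numbered libraries correlated above 0.1 in 1 of 6 pairs, so the numbers were not taken as pairs. The percent of members with a fold change above 0 was 24 within replicates 1 to 3 and ran from 27 to 58.5 with 1 library left out. ENSOCUG00000001485 reversed to −0.45 within replicates 1 to 3 and ran from −0.14 to 2.32 with 1 library left out, and ENSOCUG00000003878 reversed to −0.61 and ran from −0.25 to 2.21; both turned below 0 without control 6. In PVE004 the median member difference was −0.96 with equal totals, −0.995 with equal totals over non-members and −1.65 over the 100 most abundant members; 12% and 11.5% then lay over 2-fold above under these scalings, and 46.5%, 49.5% and, of the 100, 72% below, with 63.5 to 68% below when 1 other library was left out. In PVE009 the median was −1.56, −1.59 and −1.59, with 15.5%, 15.5% and 17% above and 57.5%, 58% and 60% below; the 100 members held 1.41% of that library. With equal totals the median difference of all tested genes was 0.47 in PVE004 and −0.41 in PVE009. The cause of these differences was not tested. The remaining 176 summary values under the alternatives stayed on their side of the threshold or moved by less than the spread between libraries. Depth limits the liver values most, where 62 members averaged under 1 normalized count.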
